A study of Mus musculus with 52 samples.

Results

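The comparison described here set endothelial cells (ECs) of the posterior pituitary (PP) against ECs of the anterior pituitary (AP) in mice in which beta-catenin had been stabilized in ECs. Its members were the 4 RNA-seq libraries of GFP-positive cells from the stabilized lobes, 2 of PP and 2 of AP, out of 52 samples in the series, chosen by title and source name. The stabilized mice carried Tie2-GFP, which labels ECs for sorting, Pdgfb-CreER, a Cre that is active in ECs after exposure to tamoxifen, and BcatEx3fl, in which loss of exon 3 of Ctnnb1 leaves a beta-catenin protein that escapes degradation. They were given 100 µg of 4-hydroxytamoxifen (4HT) at postnatal day 10 and were taken as adult males between 30 and 90 days of age. WT animals, also males between 30 and 90 days of age, carried Tie2-GFP alone, with neither Cre nor 4HT. They contributed 2 GFP-positive libraries of each lobe. Each replicate was a pool of 20 to 30 mice, whose AP and PP were dissected from the same pituitaries, so the spread between replicates is a spread between pools and 2 pools per group set the precision. Live GFP-positive cells were sorted after papain digestion, and the RNA was amplified before sequencing. In stabilized AP replicate 2 the title and the source name give the anterior lobe while the tissue field gives the posterior lobe. It was taken as anterior, and the results that rest on it are also given without it.

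ECs of most of the brain form the blood-brain barrier (BBB), with tight junctions, low transcytosis and a set of nutrient transporters, and canonical Wnt signaling through beta-catenin in ECs maintains that state. The pituitary lobes, like other secretory organs that lie outside the barrier, have fenestrated capillaries that express Plvap and lack most BBB transporters. Both lobes are therefore a site where an imposed beta-catenin signal can be compared between ECs of different origin and surroundings.

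The 4 libraries held 22277518 and 24534121 estimated reads in PP and 24947020 and 23300085 in AP. Levels are given as normalised read counts (CPM, the count as a share of the library after TMM scaling), and lobe differences as log2 fold changes of PP over AP ± SE, fitted on the counts of 12 GFP-positive libraries. Calls below are of genes that differed at least 2-fold with an adjusted p under 0.05, where p came from edgeR's quasi-likelihood test and was adjusted by Benjamini-Hochberg across all 17915 genes in the fit. The summed level of 10 endothelial markers was 6463 and 7181 CPM in PP and 10460 and 9198 CPM in AP, none of them at 0. Markers of other cells were also present in all 4 libraries. Pituitary hormones and other endocrine markers summed to 332.4 and 777.1 CPM in PP and 3342 and 4201 CPM in AP. Most of the PP sum was the endocrine marker Pomc, at 302.9 and 761.3 CPM in PP and 153.9 and 194.9 CPM in AP. Mural cell markers summed to 392.8 and 309.9 CPM in PP and 1135 and 1042 CPM in AP, most of it from Rgs5, Abcc9 and Kcnj8 in every library. Erythrocyte markers summed to 3277 and 1123 CPM in PP and 658.7 and 404.8 CPM in AP. Microglial markers summed to 749.7 and 561.5 CPM in PP and 276.8 and 587.3 CPM in AP, and the 3 neurohypophyseal neuropeptides to 2.013 and 3.255 CPM in PP and 0.1068 and 0.5092 CPM in AP, with Oxt and Avp at 0 in AP. The part of these cells in the lobe differences below was not tested. In bulk libraries of sorted cells, fewer cells of a type and less RNA per cell cannot be told apart. The library with the conflicting label held Gh, growth hormone, at 3106 CPM, near the 2636 CPM of the other AP library, against 18.8 and 7.36 CPM in PP.

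The targeted gene and a direct read-out of the pathway were examined first. Ctnnb1, which encodes beta-catenin (chr9:120929216-120960507, plus strand of GRCm38), stood at 1268 and 1398 CPM in stabilized PP ECs and at 806 and 1028 CPM in stabilized AP ECs, with 874 and 1478 CPM in WT PP and 838 and 814 CPM in WT AP. Its lobe difference of 0.54 ± 0.30 had an adjusted p of 0.79. The values are sums over transcripts, so loss of exon 3 cannot be seen in them. Axin2, a negative-feedback target of the pathway in many tissues, stood at 78.3 and 108 CPM in stabilized PP and 25.8 and 57.6 CPM in stabilized AP, against 2.06 and 1.40 CPM in WT PP and 9.40 and 0.157 CPM in WT AP. All 4 stabilized libraries lay above all 4 WT libraries, and the lobe difference within stabilized ECs, 1.16 ± 0.94, was not called (adjusted p = 0.917).

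Between the stabilized lobes, 55 genes were called higher in PP, 0.307% of the genes tested, and 44 were called higher in AP, 0.246%. At an unadjusted p under 0.05 with the same 2-fold limit the counts were 331 and 445. All 99 called genes were protein-coding, and 33 of the 55 and 26 of the 44 were also EC-enriched in the lobe where they were higher, meaning at least 2-fold above the GFP-negative cells of that lobe and at a transcript abundance (TPM) of 10 or more in both libraries. Without the AP library with the conflicting label, 116 genes were called higher in PP and 90 higher in AP, and these held 51 of the 55 and 37 of the 44. The counts were 77 and 38 without AP replicate 1, 53 and 11 without PP replicate 1 and 48 and 16 without PP replicate 2. Of the PP-higher calls, 35 were kept whichever of the 4 libraries was left out. Of the AP-higher calls, 5 were kept in this way, the hormone genes Gh, Prl and Cga, the granule protein gene Chgb and Mmrn1.

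Nutrient transporters of the BBB were prominent among the PP-higher genes. Of 23 such transporters, 11 were called higher in stabilized PP and none in AP, and 22 of the 23 had a higher fitted level in PP. Their median log2 difference was 2.21, beside -0.036 over all genes tested, and the same 23 had a median of -0.13 between the WT lobes, where members went both ways, 5 called higher in PP and 3 in AP. Of the 11 called in stabilized PP, 4 were called higher in WT PP too, namely Slco1c1, Slco1a4, Slc6a6 and Slc39a8. Slc2a1, the glucose transporter GLUT1 (chr4:119108711-119137983, plus strand), stood at 1423 and 1691 CPM in stabilized PP and 82.0 and 145 CPM in stabilized AP. In WT it was at 25.5 and 31.0 CPM in PP and 34.4 and 27.3 CPM in AP. Both stabilized lobes thus lay above both WT lobes, with PP far above AP, a difference of 3.78 ± 0.36 (adjusted p = 0.000872). Slco1c1, a thyroxine transporter (chr6:141524368-141570177, plus strand), stood at 406 and 339 CPM in stabilized PP and 3.06 and 3.56 CPM in stabilized AP, a difference of 6.81 ± 0.38 (adjusted p = 5.82e-06). Its level in stabilized AP was no higher than the 3.43 and 3.65 CPM of WT PP, and WT AP held 0 and 0.0314 CPM, a difference that was called as well (adjusted p = 3.48e-05). Mfsd2a, which carries lipids with docosahexaenoic acid into the brain and restrains transcytosis (chr4:122946850-122961188, minus strand), stood at 182 and 173 CPM in stabilized PP and 14.5 and 20.7 CPM in stabilized AP, and at 0 and 0.0608 CPM in WT PP and 0 and 0.0314 CPM in WT AP. The stabilized lobe difference was 3.34 ± 0.42 (adjusted p = 0.00527).

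**Figure D1:**
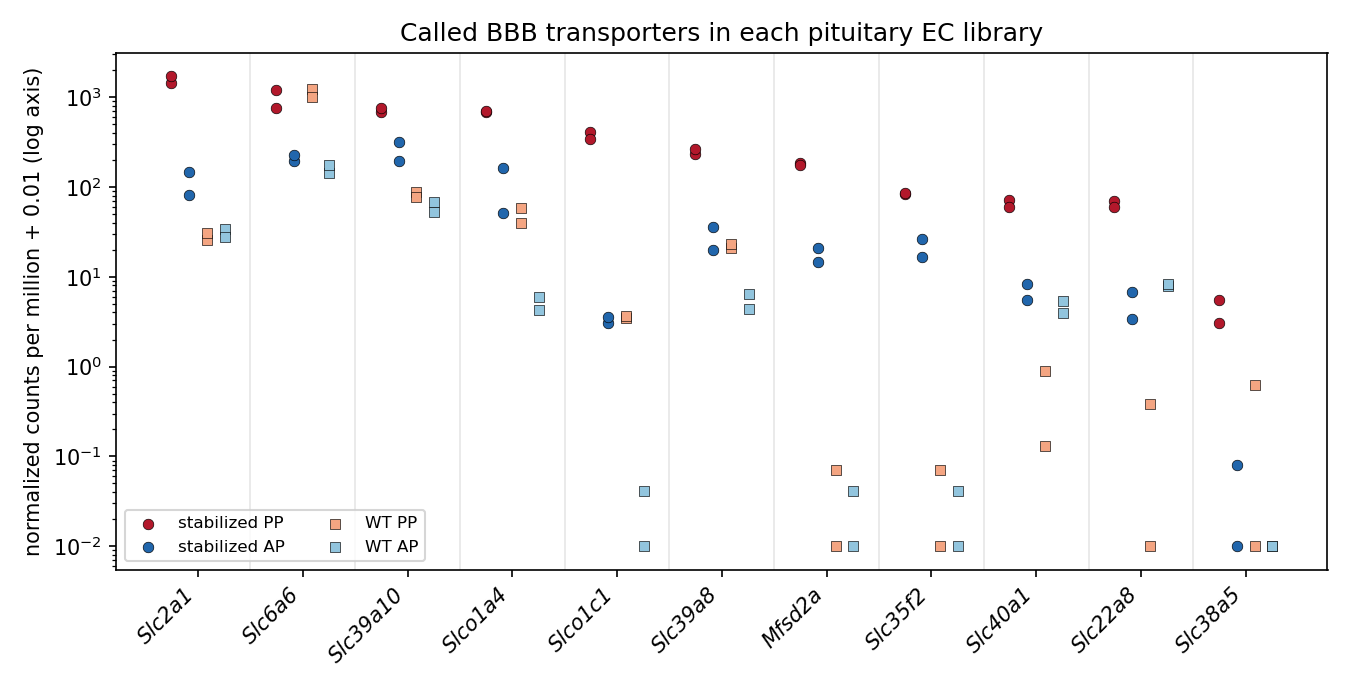
Level of the 11 called BBB transporters in each pituitary EC library, as CPM plus 0.01 on a log axis, with 2 points per group and no error bars. For every gene both stabilized PP libraries (red circles) lie above both stabilized AP libraries (dark blue circles); squares are the WT libraries of the same lobes.

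The transporters called higher in PP also included carriers of organic anions. Slco1a4 stood at 673 and 699 CPM in stabilized PP and 51.3 and 161 CPM in stabilized AP (2.69 ± 0.45, adjusted p = 0.0241), and Slc22a8, the carrier OAT3, at 70.2 and 59.5 CPM and 6.69 and 3.35 CPM (3.69 ± 0.52, adjusted p = 0.00957). Carriers of metals were among these calls as well. Slc39a8, a zinc and manganese importer, stood at 232 and 267 CPM in PP and 20.0 and 35.3 CPM in AP (3.17 ± 0.33, adjusted p = 0.0012), the zinc importer Slc39a10 at 684 and 746 CPM and 195 and 319 CPM (1.47 ± 0.29, adjusted p = 0.0461), and Slc40a1, the iron exporter ferroportin, at 71.2 and 59.0 CPM and 5.52 and 8.36 CPM (3.23 ± 0.49, adjusted p = 0.0154). The lobes did not overlap for any of these carriers. The taurine transporter Slc6a6 stood at 761.9 and 1198 CPM in PP and 193 and 228 CPM in AP (2.22 ± 0.30, adjusted p = 0.00816), and Slc35f2 at 83.1 and 85.3 CPM and 16.7 and 26.4 CPM (1.97 ± 0.37, adjusted p = 0.0394). In WT, Slco1a4 stood at 39.5 and 57.7 CPM in PP and 5.88 and 4.21 CPM in AP (3.26 ± 0.47, adjusted p = 0.00435). Slc6a6 was there at 1237 and 1007 CPM and 144 and 176 CPM (2.81 ± 0.30, adjusted p = 0.000616), and Slc39a8 at 20.997 and 22.9 CPM and 4.32 and 6.38 CPM (2.03 ± 0.32, adjusted p = 0.00763). The lobe difference of these carriers was thus present without the stabilized allele. The interaction was called for none of the 4, with adjusted p-values of 0.922 for Slco1c1, 0.876 for Slco1a4, 0.711 for Slc6a6 and 0.478 for Slc39a8. The glutamine carrier Slc38a5 rested on few reads, 172 in the PP libraries and 2 in the AP libraries, a ratio of 108 with a 95% interval of 29.5 to 900.2 that covers counting error only. The 12 transporters without a call included Slc7a3, an arginine carrier, at 41.1 and 30.8 CPM in PP and 0.356 and 2.97 CPM in AP (adjusted p = 0.0666), and the large neutral amino acid carrier pair Slc7a5, at 523 and 589 CPM in PP and 277 and 648 CPM in AP, and Slc3a2, at 714 and 729 CPM and 574 and 597 CPM. The single member with a lower level in PP was the monocarboxylate carrier Slc16a1, at 38.7 and 24.1 CPM in PP and 98.0 and 89.8 CPM in AP (-1.58 ± 0.54, adjusted p = 0.409). The number of transporters called was 14 without the AP library with the conflicting label, 5 in a fit of the 8 pituitary EC libraries and 3 in a fit of all 24 sorted libraries, GFP-negative cells included.

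Wnt feedback genes and direct targets differed less evenly. Of 16 such genes 11 had a higher level in PP and 2 were called, with a median of 1.45 beside -0.036 over all genes. The fitted differences ran from -6.34 to 7.81. On the TPM scale, which was shifted toward AP, 8 of the PP-higher members and all 5 of the AP-higher ones did not overlap between the lobes. Tnfrsf19, which encodes the receptor TROY, stood at 288 and 307 CPM in stabilized PP and 19.7 and 61.9 CPM in stabilized AP and at 0 in all 4 WT libraries, a stabilized lobe difference of 2.87 ± 0.49 (adjusted p = 0.038). Apcdd1, an inhibitor of Wnt signaling at the membrane, stood at 506 and 627 CPM in PP and 140.3 and 215 CPM in AP (1.67 ± 0.30, adjusted p = 0.0361). Several others were higher in both PP libraries and missed the threshold. The inhibitor Nkd1 stood at 168 and 211 CPM in PP and 23.6 and 36.5 CPM in AP (2.65 ± 0.66, adjusted p = 0.122) and Lef1, a DNA-binding partner of beta-catenin, at 162 and 152 CPM and 33.8 and 62.5 CPM (1.71 ± 1.08, adjusted p = 0.814). Ccnd1, a cyclin gene often listed as a target, stood at 256 and 292 CPM in PP and 304 and 271 CPM in AP. Of 13 receptors and transducers of the pathway, 1 was called. Reck, a membrane protein that serves with Adgra2 as a co-receptor for Wnt7 ligands, stood at 144 and 201 CPM in PP and 35.8 and 37.9 CPM in AP (2.22 ± 0.29, adjusted p = 0.00654), while the median of the 13 was 0.14. Wnt5a, a ligand outside these lists that is singled out after its values were seen, was also called higher in PP, at 3.17 and 3.30 CPM in PP and 0.142 and 0.339 CPM in AP (3.75 ± 0.46, adjusted p = 0.00614). It was lower in sorted ECs than in the GFP-negative cells of both lobes, by fitted log2 differences of -2.56 in PP (adjusted p = 0.0283) and -3.63 in AP (adjusted p = 0.00786).

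Genes of other functions filled the rest of the PP-higher group. Cyp2e1, a cytochrome P450 that metabolizes ethanol and other small molecules, had 1680 reads in the PP libraries, at 44.6 and 37.5 CPM, and none in the AP libraries, at least 704-fold higher against a floor of 3 reads over the group (adjusted p = 0.0093). Serpine2, a secreted inhibitor of serine proteases, stood at 132 and 135 CPM in PP and 7.16 and 8.61 CPM in AP (4.08 ± 0.63, adjusted p = 0.0163), and the chemokine gene Cxcl12 at 457 and 511 CPM and 29.2 and 39.3 CPM (3.82 ± 0.58, adjusted p = 0.0154). Alpl, tissue-nonspecific alkaline phosphatase, stood at 94.95 and 102 CPM in PP and 11.7 and 3.86 CPM in AP (3.66 ± 0.68, adjusted p = 0.0386). These secreted and surface products were also higher in PP of WT, with Cxcl12 at 793 and 738 CPM in WT PP and 1.44 and 7.92 CPM in WT AP and Alpl at 479 and 228 CPM and 8.77 and 23.5 CPM. Gcnt2, a glycosyltransferase that builds branched glycans, stood at 134 and 144 CPM in stabilized PP and 16.4 and 14.98 CPM in stabilized AP (3.15 ± 0.32, adjusted p = 0.001). Vwf, the clotting factor stored in EC granules, stood at 372 and 594 CPM and 35.4 and 66.2 CPM (3.25 ± 0.46, adjusted p = 0.00957). Fn1, fibronectin, was the sole call among 25 matrix and integrin genes, at 3676 and 5146 CPM in PP and 636 and 1199 CPM in AP (2.27 ± 0.39, adjusted p = 0.0271), while the median of those 25 was -0.76, toward AP. Gcnt2, Vwf and Fn1 were each called higher in WT PP too, Fn1 at 219 and 208 CPM in WT PP and 8.38 and 4.81 CPM in WT AP.

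The endothelial and regional transcription factors had a median of 0.0, and calls among them were toward PP. Foxf2, a forkhead factor needed for brain vessel stability, stood at 15.5 and 19.3 CPM in stabilized PP and 0.0356 and 0.297 CPM in stabilized AP (6.73 ± 0.70, adjusted p = 0.00185) and at 13.1 and 14.9 CPM in WT PP and 0 in both WT AP libraries. Foxq1 stood at 14.2 and 19.2 CPM in stabilized PP and 1.42 and 0.806 CPM in stabilized AP (3.89 ± 0.69, adjusted p = 0.0364). Of 18 guidance cues and receptors, 2 were called toward PP and 1 toward AP, and 10 had a lower level in PP, with a median of -0.25. The calls toward PP were Cxcl12 and Sema3c, at 37.3 and 35.4 CPM in PP and 0.107 and 1.06 CPM in AP, and the call toward AP was Efnb2. Sema3c was called higher in WT PP as well, at 115 and 81.0 CPM in WT PP and 0.0600 and 0.0314 CPM in WT AP. Single calls toward PP also fell in the lists of flow-responsive genes (Edn1, endothelin 1, 29.3 and 37.2 CPM and 2.17 and 0.339 CPM) and interferon-related genes (Ly6c1, 2371 and 2676 CPM and 803 and 924 CPM). The 11 flow-responsive genes had a median of 0.14 and the 15 interferon-related genes a median of 0.28. Edn1 was called higher in WT PP too, at 20.3 and 10.8 CPM in WT PP and 0.120 and 0 CPM in WT AP, and Ly6c1 was not called in WT.

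The WT lobes were then used to ask which of these differences were already present without the stabilized allele. Between WT PP and WT AP ECs, 117 genes were called higher in PP, 0.653% of those tested, and 61 higher in AP, 0.34%. Without WT PP replicate 1 these counts were 353 and 524, and 115 of the 117 and 59 of the 61 were among them. Of the 55 PP-higher calls in stabilized ECs, 23 were called in the same direction in WT and 40 had the same sign there. Of the 44 AP-higher calls, 8 were called in WT and 37 had the same sign. Seen from WT, the lobe difference was smaller in stabilized ECs for 112 of the 117 PP-higher and 59 of the 61 AP-higher genes, these being genes chosen for a large difference in WT. Vwf, with 83.7 and 204 CPM in WT PP and 0.6 and 0.503 CPM in WT AP beside the stabilized levels given above, was one of them. The test of the change itself, stabilized lobe difference minus WT lobe difference, gave -4.76 ± 0.66 (adjusted p = 0.0122). Car4, a carbonic anhydrase of capillary walls, stood at 193 and 154 CPM in stabilized PP and 26.2 and 40.1 CPM in stabilized AP (2.38 ± 0.45, adjusted p = 0.0394), against 109 and 46.9 CPM in WT PP and 0 and 0.0943 CPM in WT AP, so its AP level was near 0 in WT and not in stabilized ECs.

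Marker levels also differed between the stabilized and WT libraries. Endothelial markers summed to 12700 and 13890 CPM in WT PP, above the 6463 and 7181 CPM of stabilized PP, and to 9940 and 10800 CPM in WT AP, beside 10460 and 9198 CPM in stabilized AP. Microglial markers summed to 67.39 and 60.53 CPM in WT PP and 52.21 and 30.65 CPM in WT AP, below every stabilized library. Macrophage and leukocyte markers summed to 312.2 and 227.5 CPM in stabilized PP and 266 and 334.8 CPM in stabilized AP, against 10.55 and 5.475 CPM in WT PP and 128.2 and 137.2 CPM in WT AP. Endocrine markers summed to 2461 and 459.1 CPM in WT PP and 6027 and 3401 CPM in WT AP, and mural markers to 597.9 and 573.3 CPM and 836.4 and 954.6 CPM. Pomc held most of the endocrine sum of WT PP as well, at 2408 and 447.2 CPM. The part of these shifts in the stabilized minus WT differences was not tested.

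The interaction called 10 genes toward PP, 0.0558% of those tested, and 13 toward AP, 0.0726%. These counts rose whichever of the 8 pituitary libraries was left out, apart from a count of 11 toward AP, and were highest without WT PP replicate 1, at 394 and 221. Of the PP-higher calls in stabilized ECs, 4 had no WT call and a called interaction, and 2 had a WT call in the opposite direction. The 4 that arose were Slc2a1 (interaction 3.91 ± 0.47, adjusted p = 0.00494), Apcdd1, Nampt and Cpe. Of these, Nampt kept that status under every alternative in which the interaction was fitted, and Slc2a1 under all of them but the effective-length offset. Apcdd1 and Cpe were called lower in WT PP, and so lost it, with DESeq2, with no filter on low counts and on leaving out either stabilized AP library. Cpe also lost it with RLE scaling, the replicate block and on leaving out either stabilized PP library, WT AP replicate 2 or WT PP replicate 1, and Apcdd1 with effective lengths, in the fits of 8 and of 24 libraries and without stabilized PP replicate 2. The WT difference of Cpe was -1.42 ± 0.31 (adjusted p = 0.0514). Nampt, the rate-limiting enzyme of NAD salvage (chr12:32819545-32853349, plus strand), stood at 402 and 378 CPM in stabilized PP and 84.1 and 70.1 CPM in stabilized AP, and the WT lobes held 84.2 and 57.1 CPM in PP and 93.8 and 75.7 CPM in AP. The stabilized PP libraries stood apart from the other 6, and the interaction was 2.60 ± 0.37 (adjusted p = 0.0155). Cpe, carboxypeptidase E, which trims peptide hormones, stood at 760.3 and 787 CPM in stabilized PP and 121 and 126 CPM in stabilized AP, with 33.7 and 22.02 CPM in WT PP and 93.1 and 56.3 CPM in WT AP, and its interaction was 4.07 ± 0.44 (adjusted p = 0.00246). It is a peptide-processing gene of endocrine cells and was not EC-enriched in stabilized PP, and it is named here after its values were seen. In the GFP-positive libraries of WT cerebellum Cpe stood at 301 and 375 CPM, and the cells its RNA came from were not tested. For Apcdd1, stabilized levels of 506 and 627 CPM in PP and 140.3 and 215 CPM in AP stood beside 42.1 and 45.2 CPM in WT PP and 86.5 and 109.9 CPM in WT AP, so PP had the lower level in WT and the higher one under stabilization (interaction 2.84 ± 0.42, adjusted p = 0.0182).

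The 2 genes with opposite calls were both transporters. Slc40a1 stood at 0.874 and 0.122 CPM in WT PP and 5.40 and 3.898 CPM in WT AP (-3.06 ± 0.54, adjusted p = 0.0158), the reverse of its stabilized order, and its interaction was 6.28 ± 0.73 (adjusted p = 0.00335). Slc22a8 stood at 0.374 and 0 CPM in WT PP and 7.78 and 8.33 CPM in WT AP (adjusted p = 0.00138). For both genes the AP libraries, with and without the stabilized allele, lay between 3.35 and 8.36 CPM, and the PP libraries were under 1 CPM in WT only. The sole AP-higher call that arose was Rgs5, a regulator of G-protein signaling known as a pericyte gene, at 267 and 224 CPM in stabilized PP and 644 and 602 CPM in stabilized AP (-1.35 ± 0.25, adjusted p = 0.0364), beside 479 and 363 CPM in WT PP and 233 and 234 CPM in WT AP. It lost that status under both length offsets, in the fits of 8 and of 24 libraries and on leaving out stabilized AP replicate 1, either stabilized PP library or WT AP replicate 1.

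**Figure D2:**
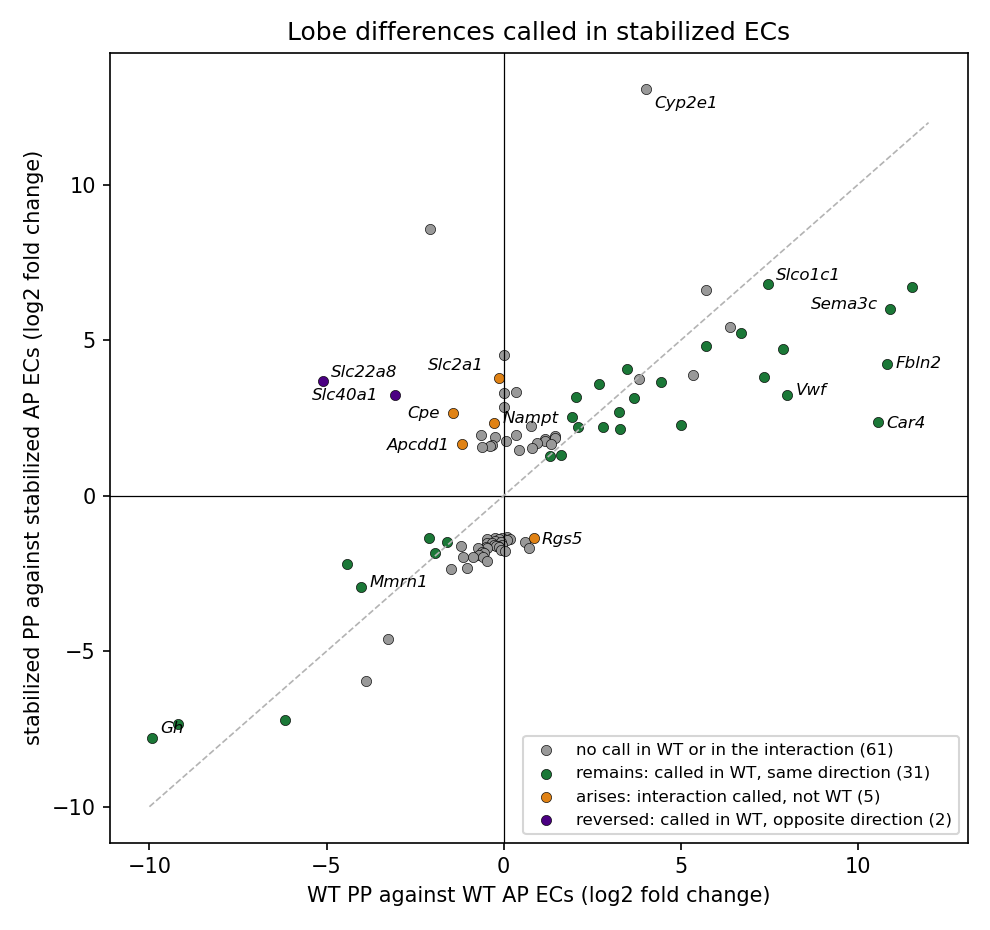
Each point is 1 of the 99 genes called between the stabilized lobes, with its WT lobe difference on the x axis and its stabilized lobe difference on the y axis, both as log2 fold changes; the dashed line marks equal differences. Green points (31) were called the same way in WT, orange points (5) had a called interaction and no WT call, purple points (2) were called the opposite way in WT and grey points (61) had neither; the position of a gene with a group at 0 reads depends on the prior count of the fit.

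WT cerebellar ECs, which form the BBB, gave a further level to set beside the called genes. Their mean TPM exceeded that of both stabilized lobes for 40 of the 55 PP-higher genes and 10 of the 44 AP-higher genes, against 6581 of the 17915 genes tested. Among EC-enriched calls the counts were 24 of 33 and 4 of 26. The TPM scale itself was shifted between the stabilized lobes, with a median log2 ratio of -0.578 over the genes tested, so these counts describe order on that scale only.

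The AP-higher group mixed EC-enriched genes with markers of other cells and with genes of long transcripts. Mmrn1, multimerin 1, a secreted protein known in lymphatic and some blood ECs (chr6:60924976-60989378, plus strand), stood at 33.9 and 34.95 CPM in stabilized PP and 286 and 240.3 CPM in stabilized AP (-2.93 ± 0.27, adjusted p = 0.000872), and at 14.4 and 15.8 CPM in WT PP and 251 and 237 CPM in WT AP. The lobes did not overlap, and the AP levels lay near those of WT AP while the PP levels lay above those of WT PP. Abcc9 and Kcnj8, which lie side by side and encode the 2 parts of an ATP-sensitive potassium channel, stood at 48.6 and 39.5 CPM and 53.9 and 25.3 CPM in PP and at 222 and 228 CPM and 214 and 147 CPM in AP. Their lobe differences were -2.35 ± 0.43 (adjusted p = 0.0364) and -2.19 ± 0.39 (adjusted p = 0.0361), and Kcnj8 was at 16.4 and 16.9 CPM in WT PP and 347 and 372 CPM in WT AP. Efnb2, ephrin B2, a surface ligand of arterial ECs, was the sole call among 16 arterial and Notch genes, at 109 and 95.7 CPM in PP and 263 and 289 CPM in AP (-1.43 ± 0.26, adjusted p = 0.0364), and the median of those 16 was -0.06. Ptp4a3, a phosphatase, stood at 78.6 and 56.1 CPM in PP and 232 and 277 CPM in AP (-1.92 ± 0.33, adjusted p = 0.0262), Gas7, a cytoskeletal adaptor, at 74.0 and 110.3 CPM and 375 and 284 CPM (-1.84 ± 0.37, adjusted p = 0.0489), and Myh10, nonmuscle myosin IIB, at 49.5 and 73.2 CPM and 222 and 255 CPM (-1.96 ± 0.30, adjusted p = 0.0163). The remaining AP-higher genes named by the same rule, Ankrd11, Nin, Stk10, Eea1, Rrbp1 and Syne2, had log2 differences from -2.10 to -1.68.

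Markers of other cells moved with the AP-higher group. Gh stood at 2636 and 3106 CPM in AP and 18.8 and 7.36 CPM in PP, Prl, prolactin, at 267 and 551 CPM and 3.12 and 1.93 CPM, and Cga, the subunit shared by the glycoprotein hormones, at 184 and 214 CPM and 1.26 and 1.42 CPM. These were the 3 calls among 10 endocrine markers, 9 of which were higher in AP, and all 3 were called the same way in WT. Abcc9, Kcnj8 and Rgs5 were also the 3 calls among 9 mural markers, 7 of which were higher in AP, with a median of -1.36. Abcc9 and Kcnj8 were EC-enriched in stabilized AP, and Rgs5 was not. The other mural markers were low in stabilized AP. The highest of them, Pdgfrb, stood there at 24.7 and 29.2 CPM, and Acta2 at 0.712 and 0 CPM. All 6 fibroblast markers were lower in PP too, with a median of -2.36 and no call. They summed to 29.44 and 19.81 CPM in PP and 103.2 and 67.81 CPM in AP. The part of endocrine, mural and fibroblast RNA in the other AP-higher values was not tested.

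Transcript length moved with the direction of the call. The effective length, the number of positions from which Salmon could draw a read, had a median of 1321 bases in the PP-higher genes, 2645.5 in the AP-higher genes and 1092 in all genes tested. In 25 of the 44 AP-higher and 18 of the 55 PP-higher genes it was over 2000 bases, as in 4910 of the 17915 tested. Over all genes with enough reads, the median stabilized lobe difference ran from 0.404 in the shortest of 10 equal bins of length to -0.342 in the longest, while in WT it ran from -0.359 to 0.188. When a smooth trend on length was taken out of the counts, 68 genes were called higher in PP, 51 of them among the 55, and 8 higher in AP, all among the 44. The 8 were Gh, Prl, Cga, Chgb, Mmrn1, Myh10, Ankrd11 and Rrbp1. With each library's own effective lengths as the offset, 13 PP-higher and 2 AP-higher calls were left, Slco1c1, Slc2a1, Slc6a6, Slc39a8 and Slc22a8 being among the 13, and Mmrn1 and Prl being the 2.

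**Figure D3:**
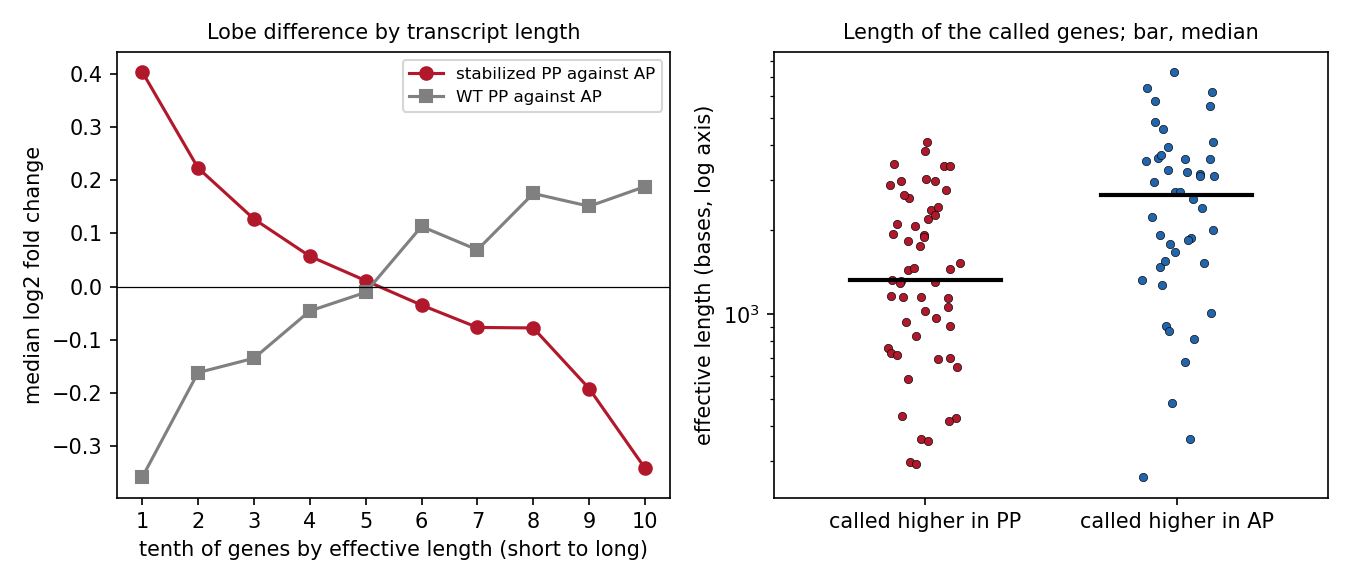
Left, median log2 fold change of PP over AP in 10 equal bins of genes ordered by effective length, for stabilized ECs (red) and WT ECs (grey); right, effective length in bases of each called gene on a log axis, with the median as a bar. The stabilized medians fall from 0.404 to -0.342 with length, the WT medians run the other way, and the AP-higher genes are the longer group.

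Several gene groups tied to barrier state or vessel type held no call between the stabilized lobes. Over all genes tested, 0.307% were called higher in PP and 0.246% higher in AP, so no call in lists this short is near that share. Of 14 tight junction genes, 10 were higher in PP, with a median of 0.41. Cldn5, the main claudin of brain ECs, stood at 224 and 269 CPM in PP and 83.1 and 185 CPM in AP (0.88 ± 0.44, adjusted p = 0.776), the spread of the AP libraries covering most of the gap, and Ocln, occludin, at 148 and 153 CPM and 13.8 and 19.0 CPM (3.20 ± 0.75, adjusted p = 0.0981). The 6 efflux pumps had a median of 0.53, and Abcb1a, P-glycoprotein, stood at 929.8 and 1045 CPM in PP and 406 and 805 CPM in AP (0.71 ± 0.34, adjusted p = 0.753). The 8 genes of the fenestral diaphragm and caveolae had a median of -0.21. Plvap, the diaphragm protein, stood at 1585 and 1761 CPM in PP and 2336 and 2361 CPM in AP, both PP libraries being below both AP libraries (-0.49 ± 1.39, adjusted p = 1), and Cav1, caveolin 1, stood at 389 and 418 CPM in PP and 108 and 190.3 CPM in AP (1.43 ± 0.29, adjusted p = 0.0549). For these genes a difference was not shown by the test, although the lobes did not overlap in CPM for any of those named here. Each SE rests on a spread estimated over all 12 libraries of the fit. The SE of Plvap is therefore not the spread of its stabilized libraries alone, and it is too large for a difference of the size seen to be called.

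Growth factor receptors and general EC genes likewise held no call, which is again near the share called over all genes tested. Kdr, the main VEGF receptor, stood at 1152 and 1382 CPM in PP and 3862 and 2822 CPM in AP (-1.40 ± 0.32, adjusted p = 0.0868), and the 14 genes of VEGF, Tie and apelin signaling had a median of -0.44 with no call. The 15 pan-endothelial genes had a median of -0.22, Pecam1 standing at 835 and 907 CPM in PP and 933 and 789.8 CPM in AP (0.02 ± 0.24). All 12 immediate early genes were lower in PP, with a median of -0.88 and no call. Between the WT lobes their median was -1.06, also with no call. Fos, which responds within minutes to stress and to cell handling, stood at 233 and 182 CPM in PP and 404 and 380.0 CPM in AP (-0.92 ± 0.78, adjusted p = 0.941). Genes of the cell cycle (median 0.61, 12 tested), BMP and TGF-beta signaling (0.67, 20 tested) and the IGF axis (0.33, 8 tested) also held no call, and capillary lipid uptake (1.01, 12 tested) and venous and leukocyte adhesion genes (0.49, 11 tested) held 1 call each, Car4 and Vwf. On the TPM scale, before its shift is taken off, the medians of the efflux, tight junction, Wnt receptor, venous, BMP, IGF, interferon and flow lists turn negative, whereas that of the transporters is 1.62.

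**Figure D4:**
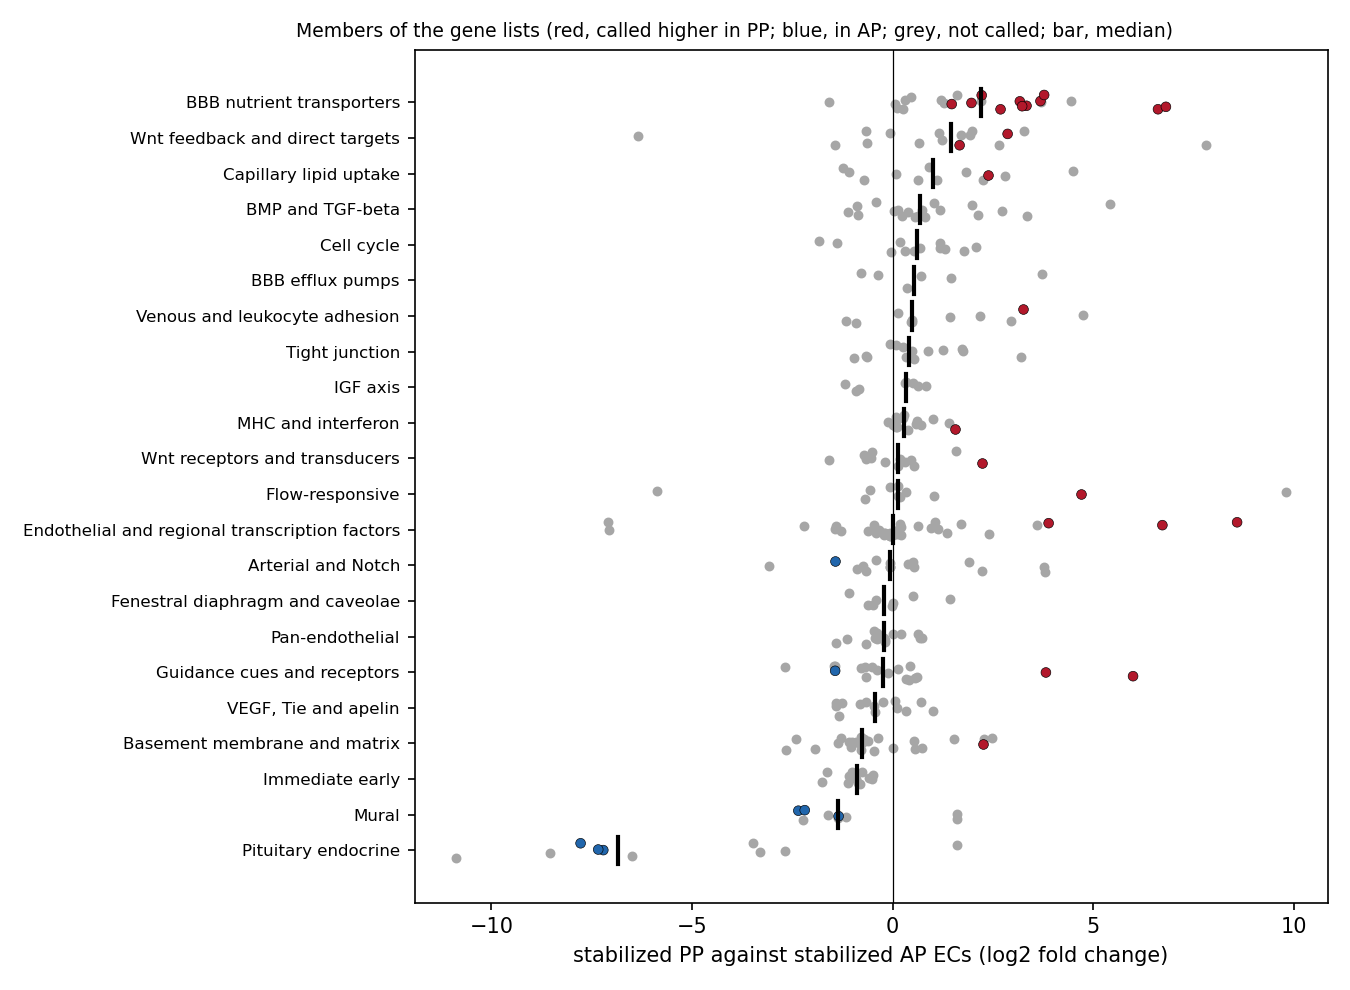
Log2 fold change of stabilized PP over stabilized AP ECs for every tested member of 20 pathway lists and 2 marker lists, with the list median as a black bar. The transporters have the highest median, 2.21, and 11 red points (called higher in PP), and the endocrine markers the lowest, -6.85, with 3 blue points (called higher in AP).

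Accessible chromatin gave a second readout that the choice of libraries had not used. ATAC-seq, which marks open DNA by transposase insertion, had been run on 2 pools of GFP-positive cells per stabilized lobe. After the study's limits on fold enrichment and on q, the PP lists held 28926 and 38583 peaks and the AP lists 40071 and 42621. In both replicates there were 27267 PP peaks and 36877 AP peaks. Of these, 931 (3.41%) of the PP peaks overlapped no peak of either AP list and 5982 (16.2%) of the AP peaks overlapped none of either PP list, and these are called lobe-restricted below. These counts depended on the lists used. Without PP replicate 1, and so with no need for a peak to recur, PP replicate 2 alone held 5617 PP-restricted peaks. Without PP replicate 2 there were 1473 of them and 11177 AP-restricted peaks, and without AP replicate 1 there were 9952 AP-restricted peaks.

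Lobe-restricted peaks differed in their relation to WT chromatin. Of the AP-restricted peaks, 3654 (61.1%) overlapped both WT AP lists, 68 (1.14%) both WT PP lists and 185 (3.09%) both WT cerebellum lists. Of the PP-restricted peaks, 102 (11%) overlapped both WT PP lists, 106 (11.4%) both WT AP lists and 325 (34.9%) both WT cerebellum lists. Among peaks shared by the stabilized lobes, 90.8% of the AP peaks overlapped both WT AP lists, 64.4% of the PP peaks both WT PP lists, and 67.3% of the PP peaks both WT cerebellum lists. The WT PP lists were short, with 21050 and 20634 peaks against 36860 and 45040 in WT AP, so a missing WT PP peak does not show a closed site. A PP-restricted peak lay within 100 kb of the gene body of 20 of the 55 PP-higher genes (36.4%), against 12.7% of all genes tested and 23.9% of the 825 genes EC-enriched in stabilized PP. For AP-restricted peaks the shares were 26 of 44 AP-higher genes (59.1%), 53.2% of all genes tested and 76.5% of the 932 genes EC-enriched in stabilized AP, and the AP-higher genes were near the share of all genes. Among calls that were themselves EC-enriched the shares were 39.4% of 33 in PP and 76.9% of 26 in AP. Within 25 kb the shares were 29.1% of the PP-higher genes against 5.54% of all genes and 15.6% of those EC-enriched in stabilized PP, and 54.5% of the AP-higher genes against 27.6% of all genes and 55.8% of those EC-enriched in stabilized AP. Among calls that were themselves EC-enriched the shares were 30.3% of the 33 in PP and 73.1% of the 26 in AP.

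The core letters bound by TCF/LEF factors, through which beta-catenin acts on DNA, were searched as TTCAAAG and ATCAAAG on both strands in the 201 bases around each summit; the 2 words differ in their first letter and cannot overlap in place. They occurred in 149 of the 931 PP-restricted peaks, 16% (Wilson 95% interval 13.8 to 18.5), and in 6.51% of the peaks shared by the lobes (6.21 to 6.82), 7.06% of all PP peaks holding them. In PP-restricted peaks that did not overlap both WT PP lists the share was 17.1% (142 of 829), and in those that did 6.86% (7 of 102, interval 3.36 to 13.5). In AP-restricted peaks it was 7.22% (6.59 to 7.91), against 6.16% of shared peaks, and within them 10.1% where the site did not overlap both WT AP lists and 5.39% where it did. The share in PP-restricted peaks fell to 7.46%, against 6.17% in shared peaks, when PP replicate 1 was left out, where the 5617 PP-restricted peaks include those found in PP replicate 2 only. With the other libraries left out it was 14.8% to 16%. A match of letters is a description of the sequence and not a measured binding site, and the intervals cover counting error only.

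**Figure D5:**
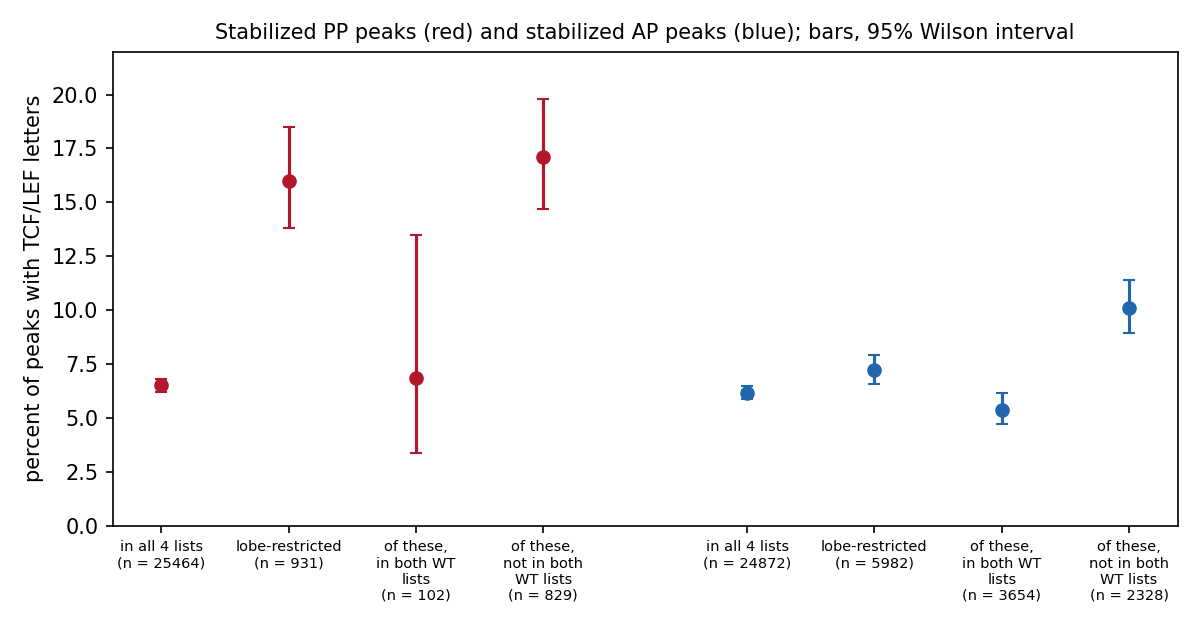
Percent of 201-base windows around peak summits that hold TTCAAAG or ATCAAAG on either strand, for stabilized PP peaks (red) and stabilized AP peaks (blue), with 95% Wilson intervals. The PP-restricted peaks stand at 16% and those of them that do not overlap both WT PP lists at 17.1%, above the 6.51% of peaks found in all 4 lists; AP-restricted peaks stand at 7.22%.

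Sequences around the summits of lobe-restricted peaks beside named genes are printed to show sites listed as peaks in a single lobe, next to genes that differed in RNA. A difference in accessibility at these sites was not tested. All are read 5′ to 3′ on the plus strand of GRCm38 (mm10) and are 101 bases each. They were chosen after their values were seen and are not all of the sites beside named genes. The Slco1c1 site (chr6:141524117-141524217) lay 0.201 kb before the start of the gene, with a fold enrichment of 5.86 and 3.92 in the PP replicates, and overlapped peaks of both WT cerebellum lists and not of both WT PP lists. The Nampt site (chr12:32756529-32756629) lay 63 kb before the gene and overlapped WT cerebellum peaks, and the Alpl site (chr4:137783841-137783941), in an intron, overlapped WT PP peaks.
Slco1c1: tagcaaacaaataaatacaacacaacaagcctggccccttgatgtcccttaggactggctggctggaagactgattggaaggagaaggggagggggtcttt
Nampt: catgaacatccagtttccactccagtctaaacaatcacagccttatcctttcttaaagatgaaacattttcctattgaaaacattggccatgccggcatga
Alpl: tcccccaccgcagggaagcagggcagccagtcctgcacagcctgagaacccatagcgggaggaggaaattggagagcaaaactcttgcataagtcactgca

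All 3 AP-restricted sites shown overlapped WT AP peaks. Fold enrichment ran higher in the AP lists, with a replicate 1 median of 10.5 in shared peaks against 7.32 in PP, and is not compared between the lobes here. The Kcnj8 site (chr6:142525041-142525141), which was also the strongest AP-restricted one beside Abcc9, lay 46.5 kb past the start of Kcnj8 and outside the gene, with a fold enrichment of 9.11 and 11.4 in the AP replicates. The Ptp4a3 site (chr15:73691878-73691978) lay 31.2 kb before the gene, with a fold enrichment of 7.75 and 11.1. The Gas7 site (chr11:67461859-67461959), 6.47 kb past the start of the gene and inside it, is shown because it holds the searched letters, in capitals and on the minus strand, and had a fold enrichment of 5.79 and 6.79. It was 1 of 5 AP-restricted peaks within 100 kb of Gas7 and not the strongest. None of the PP-restricted sites printed above holds the letters. A PP-restricted peak in an intron of Tnfrsf19, not printed here, does hold them, with a fold enrichment of 4.44 and 2.74 in the PP replicates. No other gene named for the size of its lobe difference or interaction had such a peak with the letters in its higher lobe within 100 kb.
Kcnj8: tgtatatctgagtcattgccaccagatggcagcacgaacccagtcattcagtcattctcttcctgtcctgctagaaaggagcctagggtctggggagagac
Ptp4a3: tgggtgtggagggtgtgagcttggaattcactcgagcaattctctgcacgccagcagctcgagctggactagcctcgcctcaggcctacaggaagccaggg
Gas7: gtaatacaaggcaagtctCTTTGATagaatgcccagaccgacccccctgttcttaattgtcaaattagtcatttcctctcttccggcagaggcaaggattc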

How the data were processed

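Per the labels and the study's methods, the authors quantified single-end reads of amplified cDNA with Salmon 0.10.2 on the GRCm38 (mm10) transcriptome and deposited estimated counts, TPM and effective lengths per transcript for each library. For ATAC-seq the authors aligned with Bowtie2 2.3.2, ran MACS2 2.1.1.20160309 on every library alone and deposited the peak lists, which give each peak's fold enrichment and −log10 q. From these files, the estimated counts and TPM were summed per gene, and the counts were rounded. The members and all gene lists were chosen with earlier results of these data known.

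Lobe differences were fitted with edgeR 4.0.16 (TMM, quasi-likelihood F-test, low counts filtered by filterByExpr) on 12 GFP-positive libraries of WT and stabilized pituitary lobes and cerebellum, where the study had used another test, EBSeq, and p-values were adjusted by Benjamini-Hochberg. EC enrichment was fitted on all 24 sorted libraries. Named genes were, in each direction, the 12 largest differences among protein-coding calls that were EC-enriched in the higher lobe, at 10 TPM or more in both its libraries and not overlapping, the 6 largest called interactions under the same criteria, called members of the lists with up to 4 abundant others each, and genes beside printed peaks. TPM was used for filters and for order only, because its scale differed between the stabilized lobes (median log2 ratio -0.578, against 0.127 in WT).

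Peaks had to exceed 2 in both enrichment and −log10 q, and 1 base of overlap counted as shared (bedtools 2.31.1). The lobe-restricted peaks and letter counts used summits of replicate 1 of each lobe's shared peaks. The fits were tested on simulated counts. Replicate numbers were checked for pairing: the correlation of same-numbered deviations was 0.0112 in stabilized and -0.0129 in WT ECs, and although both lobes came from the same pituitaries, that equal numbers mark the same pool is not stated, so they were not taken as pairs. Alternatives tried were DESeq2 1.42.0, RLE scaling, no filter, a replicate block, length offsets, other sets of libraries, leaving out each library and, for peaks, stricter limits and a larger overlap. Libraries of cortex and choroid plexus were not used here, and some items are not reported here.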

Additional observations from a re-analysis of the deposited data

Results flagged for a closer look

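The lobe difference itself differed between stabilized and WT ECs for 23 genes, by the interaction term of edgeR's quasi-likelihood test at an adjusted p under 0.05 and at least 2-fold. Each value below is the stabilized log2 lobe difference minus the WT one, so that a positive value means a shift toward PP.

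Toward PP the shifts were 8.79 for the organic anion carrier Slc22a8, 6.28 for ferroportin (Slc40a1), 3.91 for GLUT1 (Slc2a1), 4.07 for Cpe, 2.84 for Apcdd1 and 2.60 for Nampt, which are described above. The others were 7.38 for Srgap3, 6.33 for Grb14, an adaptor of insulin receptor signaling, 5.09 for the ribosomal protein gene Rps18, whose reads can be shared with near-identical copies, and 4.78 for the proteolipid gene Mal.

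Toward AP the shifts were -12.01 for Cd36, a fatty acid receptor, -9.66 for connexin 40 (Gja5), -9.64 for butyrylcholinesterase (Bche), -8.34 for the leukocyte adhesion molecule Vcam1, -8.19 for Car4, -7.75 for Myof, -7.28 for Crybg1, -6.59 for Fbln2, -5.07 for Cachd1, -4.83 for Pdgfrb, a mural cell receptor, -4.76 for Vwf, -2.20 for Ceacam1 and -2.19 for Rgs5. Cd36 stood at 40.7 and 40.3 CPM in stabilized PP, 18.2 and 19.4 CPM in stabilized AP, 48.3 and 35.5 CPM in WT PP and 0 and 0 CPM in WT AP. Where a group lies at or near 0 reads, as in WT AP for Cd36 and Car4, the size of a fitted shift depends on the prior count of the fit and only its direction can be read.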

How the results depend on the processing

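None of the 47 named genes with a call reversed under the alternatives of the fit, while several list medians turned negative on the TPM scale, as given above. Of these 47 named genes with a call, all stayed called under DESeq2, RLE scaling, no filter on low counts and the replicate block, 37 after removal of the length trend, 12 with effective lengths as offset and 12 in the fit of all 24 libraries. Across every one of the 13 alternatives, 6 PP-higher calls (Cpe, Nampt, Rassf9, Slc2a1, Slc6a6 and Slco1c1) and 2 AP-higher calls (Mmrn1 and Prl) were kept. Both the counts and the genes called moved with the setting, and AP-higher calls outnumbered PP-higher ones under some. PP-higher and AP-higher calls between the stabilized lobes were 55 and 44 as reported, 196 and 228 with DESeq2, 230 and 221 with no filter, 13 and 2 with effective lengths, 23 and 22 in the fit of 8 pituitary libraries, 247 and 282 in the fit of the 4 libraries alone, 12 and 32 in the fit of 24 libraries, and 68 and 8 without the length trend, an alternative chosen after seeing the data. Leaving out 1 library gave 48 to 116 and 11 to 90. The replicate block gave 76 and 61. Both lobes were dissected from the same pituitaries, but that equal numbers mark the same pool is not stated, and same-numbered deviations correlated at 0.0112.

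Between the WT lobes the counts were 544 and 488 with DESeq2, 423 and 315 with no filter, 60 and 26 with effective lengths and 34 and 23 in 4 libraries, with 108 to 353 and 60 to 524 on leaving out 1 library. The interaction gave 204 and 240 with DESeq2, 187 and 221 with no filter, 7 and 7 with effective lengths and 12 and 8 in 8 libraries, with 16 to 394 and 11 to 221 on leaving out 1 library. Differences that remained from WT numbered 84 and 46 with DESeq2, 106 and 53 with no filter, 6 and 2 with effective lengths, 13 and 8 in 8 libraries, 5 and 10 in 24 libraries, 31 and 4 without the length trend, and 23 to 66 and 6 to 29 on leaving out 1 library. Those that arose numbered 33 and 43 with DESeq2, 40 and 43 with no filter, 2 and 0 with effective lengths, 3 and 0 in 8 libraries, 4 and 0 without the length trend, 6 and 2 with the replicate block, and 3 to 20 and 0 to 36 on leaving out 1 library. Without the EC-enrichment filter the 33 and 26 calls were 55 and 44. Called transporters numbered 3 in 24 libraries, 17 with no filter, 5 with effective lengths, 5 in 8 libraries and 9 to 14 on leaving out 1 library. PP-restricted peaks numbered 364 at limits of 4, with a letter share of 17.3%, and 1306 to 5617 on leaving out 1 list, with a share of 7.46% to 16%. AP-restricted peaks numbered 6810 to 11177 on leaving out 1 list and their letter share was 6.82% to 7.81%. The cause of these changes was not tested.

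With 2 pools per group and a spread estimated over 12 libraries, genes with a large SE in that fit, such as Plvap, could not be called at the differences seen. Differences under about 2-fold were not sought.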
